A study of Saccharomyces cerevisiae W303 with 3 samples.

Results

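The genes described here are 33 stress-responsive genes of Saccharomyces cerevisiae whose products are neither chaperones nor enzymes of trehalose, glycogen or other storage sugars. They were taken by name, or by open reading frame where the array carries an older name. The list holds stress genes of the type controlled by the transcription factors Msn2 and Msn4 or by the kinase Hog1. Whether each gene is a target was not tested. The rule uses no measured value, although the list was drawn up with earlier results of these data known. All 33 were found among the 6252 genes on the arrays, each with 1 probe printed in 2 spots.

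In budding yeast, Msn2 and Msn4 enter the nucleus under heat, osmotic, oxidative and nutritional stress and bind the stress response element in the promoters of a large common set of genes. Protein kinase A, which is active during growth on plentiful nutrients, keeps both factors in the cytoplasm, so that the set is low in fast-growing cells and high in slow-growing or starved cells. The MAP kinase Hog1 acts beside them under osmotic stress and reaches part of the same genes through its own factors, among them Sko1 and Hot1.

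The cells were haploid W303, a common laboratory strain that the study describes as mating type a. It carries mutant alleles of ADE2, CAN1, HIS3, LEU2, TRP1 and URA3, which both time points share. Each of 3 independent cultures (Replicates 1, 2 and 3) was grown in a chemostat at 30 °C in synthetic medium with glycerol and little glucose, and RNA was taken at 40 and at 240 generations. No agent was added to set the groups apart, so that only the length of growth differs between them, and each culture was compared with itself. A culture is a population, and the late populations carry mutations that differ between them: HOG1 was mutated in Replicates 1 and 2, MSY1, a mitochondrial tRNA synthetase gene, in Replicates 1 and 3, and URE2, a regulator of nitrogen use, in Replicate 2. A lower level in every cell and a lower share of cells that express a gene cannot be told apart in such RNA.

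The 2 RNAs of a culture were hybridized together to 2 arrays with the dyes exchanged, 6 arrays in all, and the values are log2 ratios of 240 over 40 generations, averaged over the 2 arrays of a culture, so that n = 3 cultures. Median spot intensities lay between 518 and 915.5 in Cy5 and between 577 and 1026.5 in Cy3, over local backgrounds of 40 to 68. A gene was tested when, at one time point and on at least 4 arrays, its signal over the local background was more than 2 SDs of that background, which held for 5504 genes, and was called with limma at an adjusted p of at most 0.05 over all of these genes. The mating-type genes did not all follow the strain's description. Of the a-specific genes, MFA2 was above background on 0 arrays at either time point, MFA1 on 2 arrays at 40 and 1 at 240 generations, BAR1 on 3 and 0, STE2 on 4 and 2 and ASG7 on 6 and 5. The alpha-specific genes MF(ALPHA)1, MF(ALPHA)2, STE3 and SAG1 were above background on all 6 arrays at both time points, and MF(ALPHA)2 (2.46 ± 0.75, SD, n = 3, adjusted p = 0.00514 with limma), SAG1 (1.42 ± 0.80, adjusted p = 0.0222) and STE3 (0.78 ± 0.41, adjusted p = 0.0269) were higher at 240 generations. The part of mating type in the values below was not tested.

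Of the 33 stress genes, 32 could be tested, and 17 of these (53.1%) were lower and 0 higher at 240 generations, while 15 were not called. Over all tested genes, 13.7% were called lower and 14% higher. The 17 include YJL107C and DOG2, which passed the filter on low signal only through the 40-generation samples, where they are high. With signal required at both time points on all 6 arrays, which also removes PRM10, 14 of 29 stress genes were lower, against 13.7% of all genes that passed this filter. Among the calls, 10 stress genes (31.2%) had fallen 2-fold or more, against 3.22% of all tested genes. The log2 ratio was below 0 in all 3 cultures for 20 of the 32 (62.5%), against 32.8% of all genes. On the level scale, the 3 values at 240 generations lay below the 3 values at 40 generations, with no overlap, for 17 of the stress genes and for 16.9% of all genes. The median log2 ratio of the stress genes was -0.58 (-0.63, -0.28 and -0.62 in Replicates 1, 2 and 3), and that of all tested genes was -0.01. Of the stress genes, 5 (GAD1, EDC2, DOG2, CIN5 and DDR2) are also on a list of downregulated stress genes that the study drew up from these samples, so they are no independent evidence of direction. Of the other 27 tested genes, 12 were lower, but they were measured on the same arrays and are no independent evidence either. Some of these 12, PNS1 among them, also met the study's criteria for a downregulated gene when these were applied to the values used here.

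**Figure D1:**
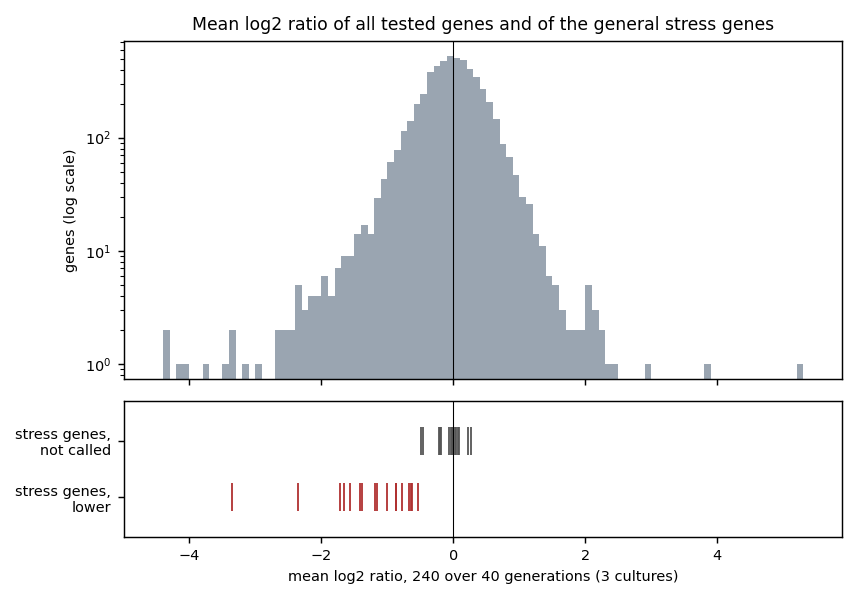
The upper panel is a histogram of the mean log2 ratio (240 over 40 generations, 3 cultures) of the 5504 tested genes, with the number of genes on a log scale, and the lower panel marks the 17 stress genes called lower and the 15 not called on the same horizontal axis. The lower genes reach from -3.35 to -0.53, and the genes not called lie between -0.49 and 0.26.

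The genes of the cell surface and plasma membrane gave the lowest value. PNS1, which encodes a plasma membrane protein related to choline transporters, had normalized log2 levels of 13.76, 13.41 and 13.86 at 40 generations and of 9.93, 10.24 and 10.82 at 240 generations in Replicates 1, 2 and 3. The 2 groups lay far apart, and every culture lost most of the signal. The mean log2 ratio was -3.35 ± 0.43 (SD, n = 3, adjusted p = 0.000662 with limma), a 10.2-fold fall. YGP1, which encodes a secreted glycoprotein induced on entry into stationary phase, went from 13.42, 13.26 and 12.87 to 11.99, 12.38 and 11.62. Its groups did not overlap, and the log2 ratio was -1.18 ± 0.28 (adjusted p = 0.00589). SPI1, which encodes a cell wall protein that protects against weak acids, had log2 ratios of -0.55, -0.82 and -0.98 (mean -0.78 ± 0.21, adjusted p = 0.0124).

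HSP30 encodes a plasma membrane protein that restrains the proton pump Pma1 under stress, and it was the only gene of the 4 in this group that was not called. Its levels at 40 generations were 14.52, 14.34 and 14.67, and at 240 generations 13.96, 14.41 and 14.52, so that the groups overlapped. The log2 ratios were -0.56, 0.08 and -0.14 (mean -0.21 ± 0.32, adjusted p = 0.332), with a negative value on 4 of 6 arrays.

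**Figure D2:**
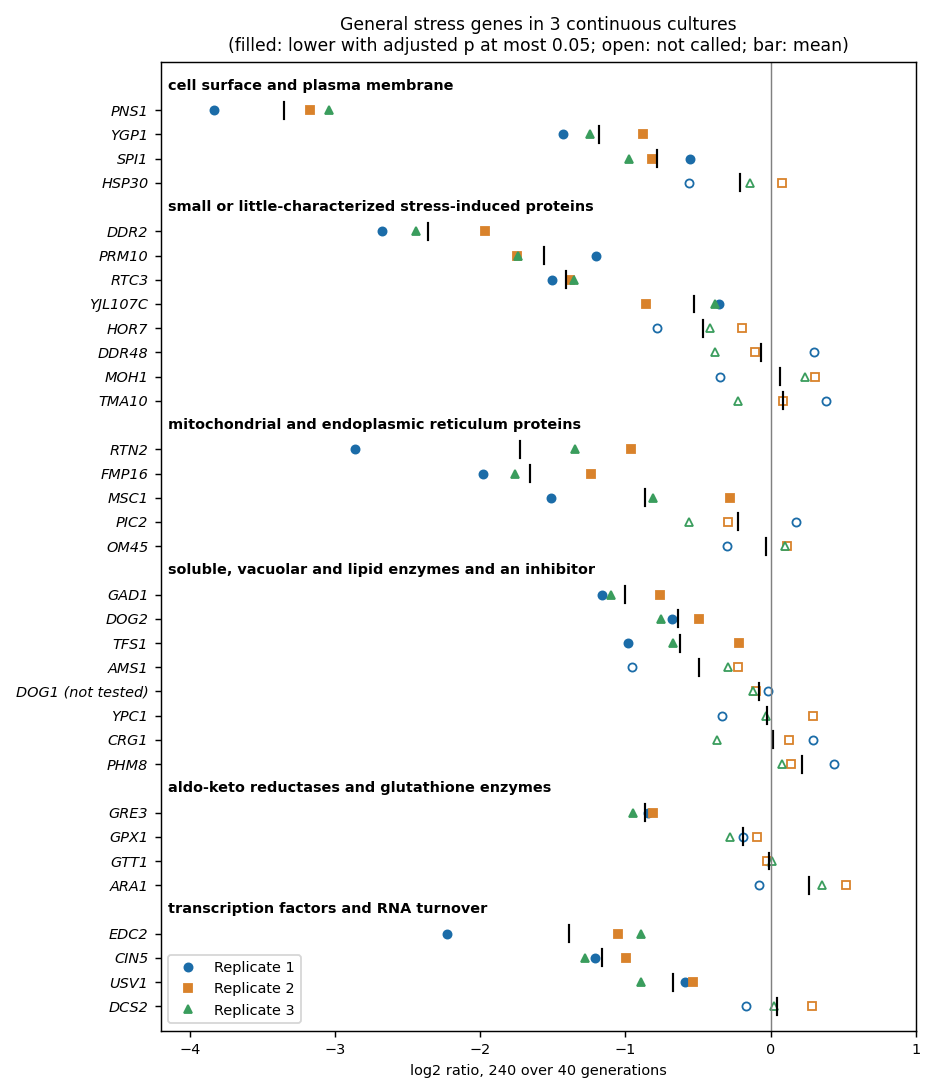
Log2 ratios (240 over 40 generations, horizontal axis) of the 33 stress genes by role, with 1 point per culture (circle, square and triangle for Replicates 1, 2 and 3), filled where the gene was called lower, and a bar at the mean. The 3 points of PNS1 lie between -3.84 and -3.04, those of GTT1 between -0.03 and 0.01, and RTN2 spreads most, from -2.86 to -0.96.

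Of the 8 genes of small or little-characterized proteins, 4 were lower, with a median of -0.50. DDR2, which encodes a small protein induced by many stresses and is often used as a reporter of Msn2 and Msn4, had levels of 12.24, 12.51 and 13.19 at 40 generations and of 9.56, 10.55 and 10.74 at 240 generations. Every late value was below every early value, and the mean ratio was -2.36 ± 0.36 (n = 3, adjusted p = 0.00155 with limma), a 5.14-fold fall. RTC3, which encodes a small protein related to the ribosome maturation factor Sdo1, had log2 ratios of -1.50, -1.38 and -1.35 and thus nearly the same value in the 3 cultures. Its levels were 10.69, 10.77 and 10.65 at 40 and 9.19, 9.39 and 9.30 at 240 generations (mean ratio -1.41 ± 0.08, adjusted p = 0.00201).

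PRM10, a gene of a predicted membrane protein that mating pheromone induces, had levels of 8.45, 8.68 and 9.46 at 40 generations and of 7.25, 6.94 and 7.72 at 240 generations. Its groups did not overlap, with a log2 ratio of -1.56 ± 0.31 (n = 3, adjusted p = 0.00373 with limma), and its signal was above background on 6 arrays at 40 and on 5 at 240 generations. With plain subtraction of the background the ratio of PRM10 was -2.31, and in the study's deposited ratios it was -2.46. YJL107C, an uncharacterized reading frame that overlaps PRM10 in the annotation, was above background on 4 arrays at 40 and on 0 at 240 generations, so that only a bound can be given and its adjusted p is no support of its own. As a rough bound, its mean early level was 1.21-fold above the mean of the lowest signals above background (measured ratio -0.53 ± 0.28, adjusted p = 0.043). Those lowest signals lay between 6.66 and 6.96 on the log2 scale, and the mean early level was 7.085. That early mean includes arrays on which YJL107C was not above background, so the bound is no strict minimum. How far the probes of PRM10 and YJL107C read the same transcript was not tested.

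The other 4 genes of this group did not pass. HOR7, which encodes a small hyperosmolarity-induced protein and is the paralog of DDR2, had log2 ratios of -0.78, -0.20 and -0.42 (mean -0.47 ± 0.30, adjusted p = 0.0627 with limma). Its levels did not overlap, at 14.05, 13.90 and 13.88 against 13.27, 13.71 and 13.47, and it passed in 4 of the other settings, among them centring of each array on its median. DDR48, a DNA damage-responsive gene, had -0.06 ± 0.35 (adjusted p = 0.786), with 0.30 in Replicate 1 and -0.39 in Replicate 3. MOH1, a gene of the Yippee family needed for survival in stationary phase, had 0.06 ± 0.36 (adjusted p = 0.788) and was the reverse, with -0.35 in Replicate 1 and 0.24 in Replicate 3. TMA10, which encodes a ribosome-associated protein, had 0.08 ± 0.30 (adjusted p = 0.7). The levels of DDR48, MOH1 and TMA10 overlapped between the time points.

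Among the 5 genes of mitochondrial and endoplasmic reticulum proteins, 3 were lower. FMP16, which encodes a mitochondrial protein of unknown function, fell in each culture, from 12.15, 12.02 and 12.58 to 10.17, 10.79 and 10.82 (log2 ratio -1.66 ± 0.38, n = 3, adjusted p = 0.00409 with limma). Its groups did not overlap. RTN2, which encodes a reticulon, a protein that curves the tubules of the endoplasmic reticulum, had levels of 12.07, 12.52 and 11.00 at 40 and of 9.20, 11.56 and 9.65 at 240 generations. The late level of Replicate 2 was above the early level of Replicate 3, so that the groups overlapped although each culture fell against itself. Its log2 ratios were -2.86, -0.96 and -1.35 (mean -1.72 ± 1.01, adjusted p = 0.0228).

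MSC1, named for a role in meiotic recombination, had log2 ratios of -1.51, -0.28 and -0.81 (mean -0.87 ± 0.62, n = 3, adjusted p = 0.0445 with limma), and without Replicate 1 the mean was -0.54. Its levels, 14.35, 13.92 and 13.72 at 40 and 12.84, 13.64 and 12.91 at 240 generations, did not overlap. PIC2, which encodes a carrier of copper and phosphate into mitochondria, was not called (-0.23 ± 0.37, adjusted p = 0.337) and had 0.18 in Replicate 1 against -0.29 and -0.56 in the other cultures. OM45, which encodes a protein of the mitochondrial outer membrane, was not called either (-0.03 ± 0.23, adjusted p = 0.876), with values from -0.30 to 0.11. The median of the 5 genes was -1.51 in Replicate 1, -0.29 in Replicate 2 and -0.81 in Replicate 3.

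Of the 8 genes of soluble, vacuolar and lipid enzymes and an inhibitor, 7 were tested and 3 were lower. GAD1, which encodes the glutamate decarboxylase that is needed for tolerance of oxidative stress, had levels of 13.43, 13.13 and 13.28 at 40 generations and of 12.27, 12.37 and 12.18 at 240 generations. The groups were apart, with a log2 ratio of -1.01 ± 0.21 (n = 3, adjusted p = 0.007 with limma), a 2.01-fold fall. TFS1, which encodes an inhibitor of the vacuolar carboxypeptidase Y and of the Ras regulator Ira2, had ratios of -0.98, -0.22 and -0.67 (mean -0.62 ± 0.38, adjusted p = 0.0431). Its levels overlapped, since Replicate 2 was at 13.29 at 240 generations and Replicate 3 at 13.18 at 40 generations.

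DOG1 and DOG2 are neighboring genes of near-identical phosphatases that act on deoxyglucose phosphate, and whether their probes keep them apart was not tested. DOG2 had levels of 7.65, 7.44 and 7.77 at 40 generations, above background on 6 arrays, and of 6.97, 6.95 and 7.02 at 240 generations, above background on 3 arrays. Its log2 ratio was -0.64 ± 0.13 (n = 3, adjusted p = 0.0155 with limma), and -1.28 with plain subtraction of the background. Since DOG2 passed the filter only through the 40-generation samples, its adjusted p is no support of its own. DOG1 was above background on 1 array at 40 and on 2 arrays at 240 generations and was therefore not tested.

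The remaining 4 genes of this group were not called. AMS1, which encodes the vacuolar alpha-mannosidase, had log2 ratios of -0.96, -0.22 and -0.29 (mean -0.49 ± 0.40, adjusted p = 0.0847 with limma), so that it was negative in each culture, with Replicate 1 apart from the others. YPC1, which encodes a ceramidase, had -0.03 ± 0.31 (adjusted p = 0.916). CRG1, which encodes a methyltransferase that protects against cantharidin, had 0.02 ± 0.34 (adjusted p = 0.941), and PHM8, which encodes a lysophosphatidic acid and nucleotide phosphatase, had 0.22 ± 0.19 (adjusted p = 0.227). PHM8 was above 0 in all 3 cultures, with 0.44, 0.14 and 0.08, and was the only tested stress gene with that pattern.

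Of the 4 genes of aldo-keto reductases and glutathione enzymes, 1 was lower, with a median of -0.10. GRE3, which encodes the aldose reductase, a Hog1-dependent gene, had log2 ratios of -0.84, -0.81 and -0.95. Its levels of 12.14, 12.28 and 11.80 at 40 and of 11.30, 11.46 and 10.85 at 240 generations did not overlap (mean ratio -0.87 ± 0.07, n = 3, adjusted p = 0.00652 with limma). The other reductase gene, ARA1, whose product oxidizes arabinose, had -0.08, 0.52 and 0.35 (mean 0.26 ± 0.31, adjusted p = 0.226). GPX1, a glutathione peroxidase gene, had -0.19 ± 0.09 (adjusted p = 0.236). Its levels of 7.50, 7.57 and 7.65 were all above the later 7.31, 7.47 and 7.37, although the gene did not pass. GTT1, a glutathione transferase gene, had -0.02, -0.03 and 0.01 (mean -0.01 ± 0.02, adjusted p = 0.948), the narrowest spread of the 33 genes.

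Among the 4 genes of transcription factors and RNA turnover, 3 were lower. CIN5, which encodes the bZIP factor Yap4 and is induced through Hog1 and Msn2, had levels of 9.07, 8.86 and 9.14 at 40 generations and of 7.86, 7.86 and 7.86 at 240 generations. The late levels were thus equal to 2 decimals, and the log2 ratio was -1.16 ± 0.15 (n = 3, adjusted p = 0.00395 with limma). The ratio of CIN5 was -1.52 both with plain subtraction of the background and in the study's deposited ratios, so its size depends on the background correction. EDC2, which encodes an enhancer of mRNA decapping, had 14.06, 13.78 and 13.68 against 11.83, 12.74 and 12.78. Its groups did not overlap, and its ratios were -2.23, -1.05 and -0.90 (mean -1.39 ± 0.73, adjusted p = 0.0189). USV1, which encodes a zinc finger factor of the response to salt and to nonfermentable carbon, had -0.59, -0.53 and -0.89 (mean -0.67 ± 0.20, adjusted p = 0.0168). DCS2, which encodes a stress-induced relative of the scavenger decapping enzyme Dcs1, had -0.17, 0.29 and 0.02 (mean 0.05 ± 0.23, adjusted p = 0.815).

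**Figure D3:**
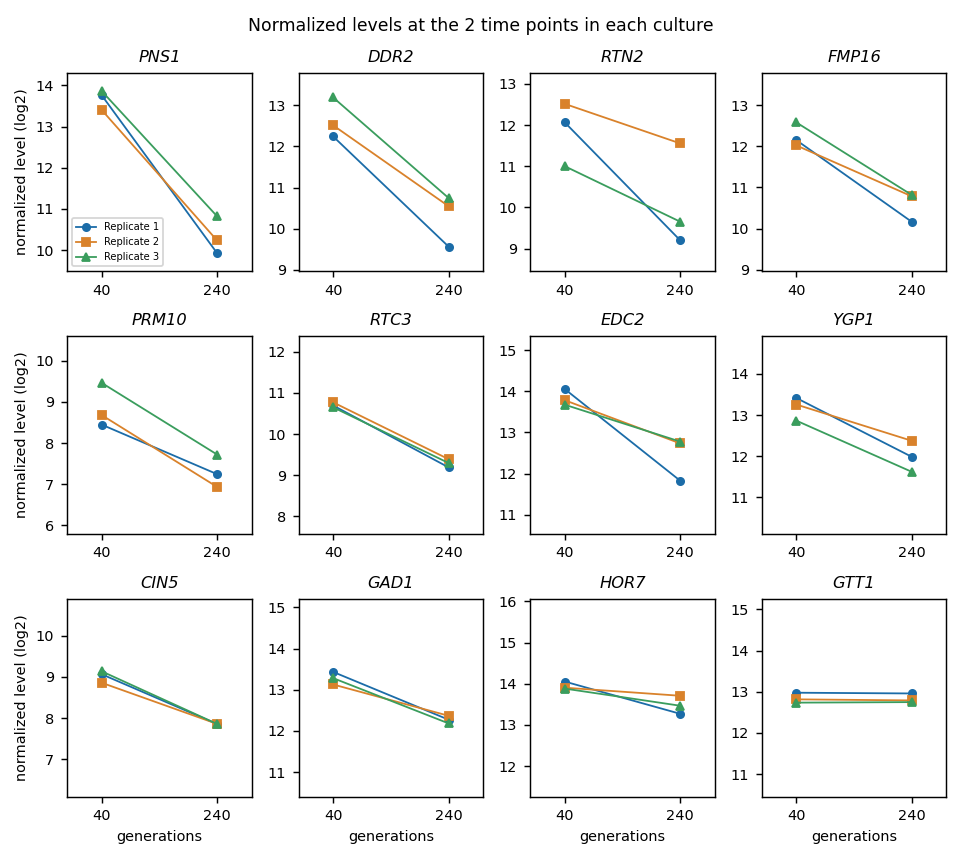
Normalized log2 levels at 40 and 240 generations (horizontal axis) of the 10 stress genes with the largest falls and of HOR7 and GTT1, 1 line per culture, each panel spanning the same number of log2 units. All lines of the first 10 panels fall, the lines of RTN2 lie apart from each other at both time points, and those of GTT1 are level.

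Each of the 17 lower genes was below 0 on all 6 arrays, in both dye orientations, and no spot of the 33 genes was saturated. The cultures did not give the same sizes. Replicate 1 had the lowest value of the 3 for PNS1, DDR2, RTN2, FMP16, RTC3, EDC2, YGP1, GAD1, MSC1 and TFS1 among the called genes. Against the mean of the other cultures, it was lower by 1.71 in RTN2, by 1.25 in EDC2 and by 0.97 in MSC1. With a single culture behind each replicate, no test of this was made. The log2 ratios of the 32 tested stress genes in Replicate 1 had a Pearson's r of 0.83 with those in Replicate 2 and of 0.85 with those in Replicate 3, and the r of Replicates 2 and 3 was 0.96. Across all 5504 genes the corresponding values were 0.71, 0.66 and 0.88, and genes are not independent replicates. Over all genes, the departure of a culture from the other cultures moved with coding length (Spearman's rho -0.37, 0.09 and 0.43 in Replicates 1, 2 and 3). Over the stress genes, rho was -0.09, -0.03 and 0.19, and the part of length in their values was not tested.

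The calls rested on the replicates to different degrees. With Replicate 1 left out 17 of the 17 calls held, with Replicate 2 left out 9 did and with Replicate 3 left out 11 did, and 11 held in a fit that did not pair the time points by culture. The share of all tested genes called lower changed as well, to 22.7%, 3% and 6.83% without Replicates 1, 2 and 3 and to 4.41% without pairing. The 8 calls lost without Replicate 2 were GRE3, MSC1, TFS1, SPI1, USV1, EDC2, DOG2 and YJL107C, and MSC1, TFS1, SPI1, USV1, DOG2 and YJL107C were also lost without Replicate 3. Without Replicate 2, the log2 ratios of GRE3 (-0.90), MSC1 (-1.16), TFS1 (-0.83), USV1 (-0.74), EDC2 (-1.56) and DOG2 (-0.72) were as large as with it or larger, SPI1 had -0.77 and YJL107C had -0.37. Without pairing, MSC1, TFS1, RTN2, USV1, DOG2 and YJL107C were lost. PNS1, DDR2, FMP16, PRM10, RTC3, YGP1, CIN5 and GAD1 were called lower under every change of processing or replicates in which they were tested, that is 8 of 17 (47.1%), against 133 of the 753 lower genes (17.7%). PRM10 was not tested with the filter on both time points, which it did not pass.

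For 16 of the stress genes, a related gene of yeast was set beside it. The difference between the log2 ratios of the 2 genes had the same sign in the 3 cultures for 12 pairs. Among these 12 are the pairs of DOG2, EDC2 and USV1, whose partners DOG1, EDC1 and RGM1 were too dim to be tested. The differences are given as values per culture, and no test of them was made. The widest gap in which the stress gene was the lower one was that of DDR2 and HOR7, at -1.89, -1.77 and -2.03 (mean -1.90 ± 0.13, SD, n = 3). Its size varied little between the cultures. CIN5 stood beside YAP6, a bZIP factor gene of the same family that was not called (-0.09 ± 0.08, adjusted p = 0.573 with limma), with a difference of -1.08 ± 0.09. YAP6 was dim, with levels of 7.14 to 7.51, above background on 6 arrays at 40 and on 5 at 240 generations. Low signal thus limits its ratio and this difference. RTN2 was below RTN1 in each culture, but RTN1 was itself lower at 240 generations (-0.92 ± 0.21, adjusted p = 0.00868). TFS1 was below its relative YLR179C (-0.08 ± 0.21, adjusted p = 0.67). EDC1 and RGM1, the relatives of EDC2 and USV1, did not pass the filter on dim probes and had ratios of -0.33 ± 0.27 and -0.17 ± 0.08.

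In the genes of the cell surface the order was the other way round. SED1, the gene of an abundant cell wall protein set beside SPI1, fell by 2.30 (SD 0.28, n = 3, adjusted p = 0.00103 with limma), so that SPI1 was higher than SED1 by 1.52 ± 0.10 on the log2 ratio scale. SPS100, a spore wall gene set beside YGP1, had -1.97 ± 0.27 (adjusted p = 0.00161), and the difference was 0.78 ± 0.25. MRH1, a membrane protein gene related to HSP30, had -1.96 ± 0.61 (adjusted p = 0.00586) where HSP30 was not called, with differences of 2.09, 1.71 and 1.44 in the 3 cultures. These 3 relatives thus had lower ratios than the stress genes beside them in every culture.

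For the genes that did not move, most relatives were not called either. STF2, the relative of TMA10, was at 0.00 ± 0.31 (adjusted p = 0.991 with limma), DCS1, that of DCS2, at -0.17 ± 0.25 (adjusted p = 0.382), and GPX2, that of GPX1, at -0.10 ± 0.27 (adjusted p = 0.602). YDC1, that of YPC1, had -0.07 ± 0.29 (adjusted p = 0.745) and SDT1, that of PHM8, 0.15 ± 0.60 (adjusted p = 0.639). The phosphate carrier gene MIR1, set beside PIC2, had -0.63 ± 0.54 (adjusted p = 0.0739), with -1.25 in Replicate 1.

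**Figure D4:**
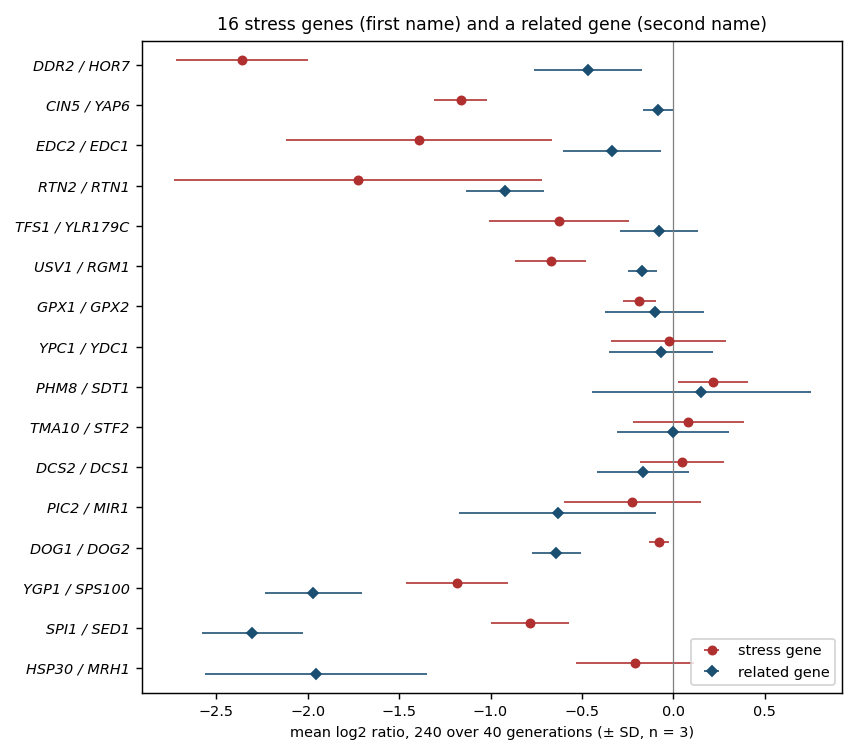
Mean log2 ratio (240 over 40 generations, ± SD, n = 3 cultures) of 16 stress genes (red circles) and of a related gene (blue diamonds), ordered by the difference between them. DDR2, at -2.36, is far below HOR7, at -0.47, and SPI1 and HSP30, at -0.78 and -0.21, are above SED1 and MRH1, at -2.30 and -1.96.

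The regulators of the response were measured on the same arrays. Of 22 genes of protein kinase A signaling and of the Msn2 and Msn4 branch, 5 (22.7%) were lower and 1 (4.55%) was higher, against 13.7% and 14% of all tested genes. MSN2 was lower, with -0.59, -0.28 and -0.52 (mean -0.47 ± 0.16, n = 3, adjusted p = 0.037 with limma), while MSN4 had 0.23, 0.61 and 0.35 and was not called (mean 0.40 ± 0.20, adjusted p = 0.0618). GIS1, which encodes a factor of the post-diauxic shift (-0.89 ± 0.56, adjusted p = 0.0347), the Ras regulator gene IRA2 (-0.75 ± 0.47, adjusted p = 0.0372), the kinase subunit gene TPK2 (-0.66 ± 0.24, adjusted p = 0.0205) and the phosphodiesterase gene PDE1 (-0.45 ± 0.10, adjusted p = 0.0327) were lower. WHI2, which is needed for full activation of the general stress response, was higher (0.55 ± 0.13, adjusted p = 0.0224). The kinase genes RIM15 (0.01 ± 0.47, adjusted p = 0.982) and YAK1 (-0.44 ± 0.58, adjusted p = 0.181) were not called, and both had their lowest value, -0.54 and -1.10, in Replicate 1. Transcript levels of these regulators say nothing of the activity or the place of their proteins.

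Of 20 genes of the Hog1 pathway, 5 (25%) were lower and 3 (15%) were higher, against the same shares of all genes, 13.7% and 14%. HOG1 itself had -1.66, -0.88 and -0.82 (mean -1.12 ± 0.47, n = 3, adjusted p = 0.0142 with limma), and the kinase gene above it, PBS2, -0.37 ± 0.05 (adjusted p = 0.0485). The mucin gene HKR1 (-0.77 ± 0.05, adjusted p = 0.0085), the phosphatase gene PTP2 (-0.50 ± 0.08, adjusted p = 0.0253) and the response regulator gene SSK1 (-0.45 ± 0.09, adjusted p = 0.0325) were lower. The sensor genes SHO1 (0.73 ± 0.33, adjusted p = 0.023) and MSB2 (0.56 ± 0.24, adjusted p = 0.0323) and the activator gene MSN1 (0.53 ± 0.21, adjusted p = 0.0327) were higher. Of the factors at the end of the pathway, SKO1 (-0.30 ± 0.25, adjusted p = 0.141) and HOT1 (0.27 ± 0.12, adjusted p = 0.119) were not called.

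Of 40 other genes of the Msn2 and Msn4 type, which include chaperone and sugar genes, 19 (47.5%) were lower and 2 (5%) were higher. Their median was -0.61. Over all tested genes, 13.7% were lower and 14% higher, with a median of -0.01. GRE1, a desiccation-induced gene (-4.37, adjusted p = 0.000662 with limma), and GRE2, a methylglyoxal reductase gene (-2.26, adjusted p = 0.000662), had the lowest means, and the hexokinase gene HXK1 (0.58, adjusted p = 0.0238) and the mitochondrial chaperone gene HSP78 (0.47, adjusted p = 0.0431) were the higher genes. Of these 40, 12 are on the study's own list of downregulated stress genes. The share of lower calls among the 32 stress genes tested, 53.1%, and their median, -0.58, stand beside these values, and the difference between the lists was not tested.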

How the data were processed

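RNA of 3 cultures of W303 at 40 and 240 generations was hybridized to 6 two-color arrays, with a dye swap for each culture. Spots were extracted by the authors with GenePix Pro 6.1. The deposited values, not normalized, are pixel intensities of spot and local background in Cy5 and Cy3, a flag for each spot and the percent of its pixels that were saturated. The authors also deposited log2 ratios per culture, made in Acuity 4.0 by a normalization not named in the sources used here. Their values run as 240 over 40 generations, against the order in the column names, and include 277, 332 and 24 exact zeros in Replicates 1, 2 and 3 (0 among the stress genes), treated as missing. The same values in the series table differ by at most 8.88e-16.

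The analysis used R 4.3.3 and limma 3.58.1. Medians were corrected with normexp (offset 50), each array was normalized with loess (control spots without weight), values were averaged over the 2 spots and over the dye swap, and the 3 cultures were tested for a mean other than 0 with limma's lmFit and eBayes (3.70 prior degrees of freedom) and Benjamini-Hochberg adjustment over 5504 genes. Adjusted p-values are limma's throughout. Levels are the channels after loess and quantile scaling of the average intensities between arrays, and they are not compared between probes. The 2 RNAs of a culture share an array, so the fit pairs the time points by culture. The number of cultures, 3, limits the precision. The fit was tested on simulated data with independent noise and few changed genes. That setting is simpler than these data, so the test does not show how reliable the calls are. The dye-swap arrays gave Pearson's r of 0.96, 0.95 and 0.95 across genes, and the median gap between the 2 arrays of a culture over the stress genes was 0.17, 0.13 and 0.12 on the log2 scale. Spots flagged as not found (963 to 1728 per array) were kept.

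The stress genes, the lists of relatives, regulators and other genes of the Msn2 and Msn4 type and the tests were chosen with earlier results of these data known. All stress genes and relatives are named, as are the mating-type genes. Of the regulators, MSN2, MSN4, RIM15, YAK1, HOG1, SKO1, HOT1 and each regulator past the test are named. Of the other genes of the Msn2 and Msn4 type, the 2 with the lowest and the 2 with the highest mean past the test are named. The 19 alternatives changed background correction, spot statistic, normalization, flags, filter, dye orientation, prior, pairing, replicates, source of the values or call rule. Gene names and overlaps were taken from the RefSeq annotation, and 4 genes with emptied lines were not analysed. Promoter, protein and probe sequences were not analysed here.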

Additional observations from a re-analysis of the deposited data

How the results depend on the processing

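The number of stress genes called lower was 17 with the settings reported. It lay between 14 and 19 under the changes of background, spot statistic, normalization, flags, filter, dye orientation, prior and source of the values. Under these changes, the share of all genes called lower lay between 11.1% and 18%. With no replicate block, that is without pairing the time points by culture, 11 stress genes were lower (4.41% of all genes). The study's criteria of size (mean log2 ratio of at least 0.9), p and SD gave 9 lower stress genes. No share of all genes is given for these criteria. Leaving out 1 replicate gave 9 to 18 lower stress genes (22.7%, 3% and 6.83% of all genes were lower without Replicates 1, 2 and 3). It gave 0 to 1 higher stress genes, the latter ARA1 without Replicate 1, where 1225 of all 5504 tested genes were higher. Under all other settings 0 stress genes were higher. With median centring, 992 genes of all were lower and 649 higher (753 and 769 with loess), the median of all genes was -0.07, and 18 stress genes were lower. The median of the stress genes stayed between -0.68 and -0.49. HOR7 passed with median centring, scaling between arrays, the fit of 6 arrays and 240 generations in Cy5 only, AMS1 with median centring and the fit of 6 arrays, and PIC2 without Replicate 1.

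None of the 17 called genes changed sign. Some uncalled genes did, and the cause was not tested. Under median centring MOH1 had -0.013, DCS2 -0.193, TMA10 -0.070 and CRG1 -0.063. With 240 generations in Cy5 only, DDR48 had 0.073, PIC2 0.003, HSP30 0.059, TMA10 -0.011, GTT1 0.038 and CRG1 -0.037, and with Cy3 only DCS2 had -0.066 and YPC1 0.059. With plain subtraction GTT1 had 0.002. With the authors' ratios, and equally the series table, DCS2 had -0.018 and CRG1 -0.027. Without 1 replicate, the ranges were -0.246 to 0.098 for DDR48, -0.056 to 0.271 for MOH1, -0.074 to 0.154 for DCS2, -0.102 to 0.104 for OM45, -0.183 to 0.131 for YPC1, -0.069 to 0.235 for TMA10 and -0.119 to 0.211 for CRG1. Low signal limits YJL107C, DOG2 and PRM10, which had -1.69, -1.42 and -2.46 with the authors' ratios. With plain subtraction YJL107C had -1.69 and DOG2 -1.28. CIN5 had -1.52 with plain subtraction and with the authors' ratios.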
